A study of Mus musculus with 12 samples.

Results

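The genes described here are the mouse genes named Zfp followed by a number, most of which encode zinc finger proteins, in cells washed from the peritoneal cavity. Of 371 such symbols in the files, 222 had a mean of at least 1 FPKM (sequenced fragments of a gene, scaled to transcript length and library size) over the 12 libraries and were kept. A further 146 lay below that level, 11 of them at 0 in every library. The mRNA decay factors Zfp36, Zfp36l1 and Zfp36l2, whose zinc fingers are of another kind, were above it but were left out by the rule. The members were chosen by their mean level alone, so that level is a description and was not tested. Just inside the minimum were Zfp951 (1.02 FPKM), Zfp74 (1.06 FPKM) and Zfp119b (1.08 FPKM), and just outside it were Zfp82 (0.979 FPKM), Zfp157 (0.979 FPKM) and Zfp605 (0.971 FPKM).

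Total RNA of peritoneal lavage cells was sequenced from mice of the strain C57BL/6J, either wild type or lactoferrin knockout, given either PBS or LPS, bacterial lipopolysaccharide, into the peritoneal cavity. The 4 groups were wild type with PBS, wild type with LPS, knockout with PBS and knockout with LPS, with 3 libraries each. The dose, the time after injection, the animals' age and sex, the deleted part of the gene and whether a library is 1 mouse are not stated in the labels. P-values therefore measure library-to-library spread, which may be technical. All 6 knockout libraries carry a title naming wild-type mice, whereas their descriptions and characteristics say knockout, and these were followed. Ltf, the lactoferrin gene, was at 1.16 to 1.89 FPKM in wild type with PBS, at 0.176, 1.33 and 0.275 FPKM in wild type with LPS, at 0.183 to 0.258 FPKM in the knockout with PBS and at 0.0699 to 0.117 FPKM in the knockout with LPS. Wild-type LPS replicates 1 and 3 were thus at or near the level of the knockout PBS libraries for the gene that defines the groups.

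Most Zfp proteins bind DNA through arrays of fingers in which a pair of cysteines and a pair of histidines hold a zinc ion, and the order of the fingers sets the sequence that is read. Many also carry a KRAB box, which recruits the corepressor Trim28 (KAP1) and, with it, the histone methyltransferase Setdb1, heterochromatin proteins and deacetylases to silence retroelements and other targets. KRAB zinc finger genes have multiplied by tandem duplication and lie in chromosomal clusters of near relatives. Other members have no KRAB box and act as activators, as parts of RNA or ribosome quality control, or in ubiquitin ligation. LPS is sensed through Tlr4, which signals to NF-kappaB, AP-1 and interferon regulatory factors.

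The promoters of 4 members with some of the largest changes after LPS are shown first, since the later values turn on these genes. Each runs from 250 bases before the start to 50 bases after it, 5′ to 3′ on the gene's strand, from RefSeq on GRCm38.p6. Capitals mark a match to any of the motifs searched, and a promoter with no capitals held none. Zfp970 (chr2:177464492-177464791, plus strand) and Zfp1 (chr8:111643193-111643492, plus strand) rose. Zfp710 (chr7:80024564-80024863, plus strand) and Zfp385a (chr15:103340037-103340336, minus strand) fell. In Zfp1 the capitals are a Zfp143-like match, and in Zfp385a they are 3 GC boxes.
Zfp970: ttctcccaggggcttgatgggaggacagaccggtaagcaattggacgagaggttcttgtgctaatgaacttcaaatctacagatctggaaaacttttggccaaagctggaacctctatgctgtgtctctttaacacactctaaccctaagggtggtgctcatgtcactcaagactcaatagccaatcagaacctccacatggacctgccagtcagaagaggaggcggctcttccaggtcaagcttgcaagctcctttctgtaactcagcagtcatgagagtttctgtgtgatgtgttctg
Zfp1: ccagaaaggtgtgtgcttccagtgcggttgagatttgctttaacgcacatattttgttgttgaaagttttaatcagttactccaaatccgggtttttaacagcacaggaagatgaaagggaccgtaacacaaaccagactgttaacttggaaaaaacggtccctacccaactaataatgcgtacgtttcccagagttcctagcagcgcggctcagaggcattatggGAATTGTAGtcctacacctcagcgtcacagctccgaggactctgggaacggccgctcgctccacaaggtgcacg
Zfp710: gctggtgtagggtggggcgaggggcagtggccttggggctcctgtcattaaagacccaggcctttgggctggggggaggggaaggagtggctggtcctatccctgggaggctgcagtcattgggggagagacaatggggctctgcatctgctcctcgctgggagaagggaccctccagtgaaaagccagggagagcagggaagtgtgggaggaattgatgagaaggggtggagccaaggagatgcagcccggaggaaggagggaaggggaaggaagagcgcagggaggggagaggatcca
Zfp385a: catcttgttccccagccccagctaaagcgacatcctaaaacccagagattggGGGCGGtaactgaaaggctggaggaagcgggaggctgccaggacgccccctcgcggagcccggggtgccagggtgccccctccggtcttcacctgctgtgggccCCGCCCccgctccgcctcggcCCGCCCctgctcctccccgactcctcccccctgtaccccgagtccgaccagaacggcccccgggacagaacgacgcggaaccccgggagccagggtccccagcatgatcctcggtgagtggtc

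Promoters of this length were matched for 187 of the 222 members and were compared with 27025 promoters in all. These 27025 were not limited to genes of at least 1 FPKM, as the members were. Whether expressed genes in general differ from all promoters in these strings was not tested. The motifs were searched on both strands as fixed letters. They were GGGANTTTC (kappaB-like), TTTCNNTTT (interferon-response-like), TGANTCA (AP-1-like), TGACGTCA (CRE), CCGGAAGT (ETS), GCGCATGCG (NRF-1-like), CACGTG (E-box), GGGCGG (GC box), AAGATGGCG (YY1-like) and CTACAANTC (Zfp143-like). A kappaB-like match ends in TTTC and can overlap the start of an interferon-response-like match. The kappaB-like string was in 2 of the 187 member promoters (1.07%, against 1.15% of all). Both were among the 68 promoters of members called lower with LPS in wild type (2.94%), and 0 among the 30 of those called higher. So rare a string cannot separate sets of this size. The interferon-response-like string was in 9.09% against 10.7%, and the AP-1-like string in 3.74% against 7.93%. Strings known from many housekeeping promoters were more frequent in the members than in all promoters, with the GC box at 47.6% against 35.9%, the ETS string at 8.56% against 4% and the YY1-like string at 4.28% against 1.49%. The Zfp143-like string, modelled on the site of the member Zfp143, was in 9 member promoters (4.81%, against 1.53% of all). The CRE was in 4.28% of member promoters, against 1.88% of all, and the NRF-1-like string in 4.81%, against 1.81%. The CRE was in 6 of 68 promoters of members called lower in wild type and in 0 of 30 of those called higher, whereas the NRF-1-like string was in 0 of 68 and 4 of 30. These are matches of letters and were not tested.

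The members were mostly expressed at low levels, with means from 1.02 FPKM, close to the minimum set by the rule, to 62.8 FPKM. Their median level was 3.24 FPKM, against 8.93 FPKM for the 9841 genes of the same minimum. Between 1 and 2 FPKM lay 59 members, between 2 and 5 FPKM 103, between 5 and 10 FPKM 35, and at 10 FPKM or more 25. Every member was above 0 in all 12 libraries, but 24 had a group mean below 1 FPKM. Summed over the 222 members, the level was 1059 to 1156 FPKM in wild type with PBS, 1023 to 1074 FPKM in wild type with LPS, 1064 to 1143 FPKM in the knockout with PBS and 971.1 to 1049 FPKM in the knockout with LPS. As a share of a library's total FPKM, the sum was 0.302% to 0.332% in the 6 PBS libraries and 0.25% to 0.295% in the 6 LPS libraries, which did not overlap. Over the members, libraries of the same group correlated with Spearman's rho from 0.917 to 0.98.

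The 10 members with the highest means were Zfp207, Zfp706, Zfp106, Zfp91, Zfp146, Zfp330, Zfp281, Zfp598, Zfp622 and Zfp263. Zfp207, a microtubule-binding protein needed for chromosome alignment, led with a mean of 62.8 FPKM. Next came Zfp706 at 33.2 FPKM, the RNA-binding protein Zfp106 at 26 FPKM and Zfp91, a ubiquitin ligase linked to non-canonical NF-kappaB signalling, at 21.2 FPKM. Zfp706 was at 34.8, 39.7 and 35.2 FPKM with PBS and 28.3, 29.2 and 22.1 FPKM with LPS in the knockout, a fall of 0.46 ± 0.15 on the log2 scale (adjusted p = 0.026) that did not hold without PBS replicate 2 (0.0879) or LPS replicate 3 (0.098) nor under either scaling (0.131 and 0.0775). Without the 2 erythroid-rich libraries its adjusted p was 0.0504, and in wild type it was not called. Zfp91 lay between 18.5 and 24.2 FPKM in all 12 libraries and was called in neither LPS contrast. Zfp106 was at 25.3 to 30.4 FPKM in wild type with PBS, 25.7 to 28.4 FPKM in wild type with LPS, 24.9 to 28.9 FPKM in the knockout with PBS and 22.2 to 23.4 FPKM in the knockout with LPS, where it was lowest. Zfp146, a protein made almost wholly of fingers, was at 16.1 to 22.4 FPKM over all libraries and was not called either. Zfp263 was at 11.4 to 16.5 FPKM with PBS and 12 to 13 FPKM with LPS, and these ranges overlapped.

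LPS lowered more members than it raised. In wild type, 35 of the 222 members were higher and 86 lower with LPS than with PBS (limma on log2(FPKM + 1), Benjamini-Hochberg adjusted p under 0.05 over all 9841 genes). These are 15.8% and 38.7% of the members, while 24.8% of all tested genes were called higher and 37.4% lower. The share called lower was near the background, and the share called higher was below it. In the knockout, 21 members were higher and 80 lower, or 9.46% and 36%, against 19.9% and 33.3% of all tested genes. The median log2 difference of the members was −0.191 in wild type and −0.186 in the knockout, against −0.111 and −0.125 over all tested genes. A change above 1 on the log2 scale was called for 3 members upward and 8 downward in wild type, and for 0 and 5 in the knockout.

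The balance of higher and lower calls moved with the scaling of the libraries. Median-of-ratios scaling gave 52 higher and 59 lower members in wild type and 42 and 50 in the knockout, against 33.8% of all tested genes higher and 29.2% lower in wild type and 29.8% and 24.6% in the knockout. Upper-quartile scaling gave 45 and 63, and 35 and 58, against 31.8% and 31.1%, and 26.7% and 26.7%. Median-of-ratios scaling moved the median of all tested genes from −0.111 to 0.0476 in wild type and from −0.125 to 0.0404 in the knockout. The members' medians became −0.0503 and −0.0402, so they stayed below that of all genes. Without knockout PBS replicate 2, the members called higher in the knockout numbered 12 in place of 21. Wild-type LPS replicate 2 and knockout LPS replicate 1 were richest in erythroid transcripts, with 7 marker genes summing to 2226 and 1886 FPKM against at most 329.6 FPKM in each PBS library. Without both, 27 members were higher and 80 lower in wild type, and 16 and 57 in the knockout.

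Where a member was called in both genotypes, its direction was the same. Of the 222 members, 17 were called higher in both, 67 lower in both, 84 in neither and 0 in opposite directions. A further 18 were called higher and 19 lower in wild type alone, and 4 higher and 13 lower in the knockout alone, which does not show that those responses differ. The log2 differences of the 222 members correlated between genotypes with Pearson's r of 0.895 and Spearman's rho of 0.849, from contrasts with no library in common. The sign was negative in both for 137 members, positive in both for 50 and unlike for 35.

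**Figure D1:**
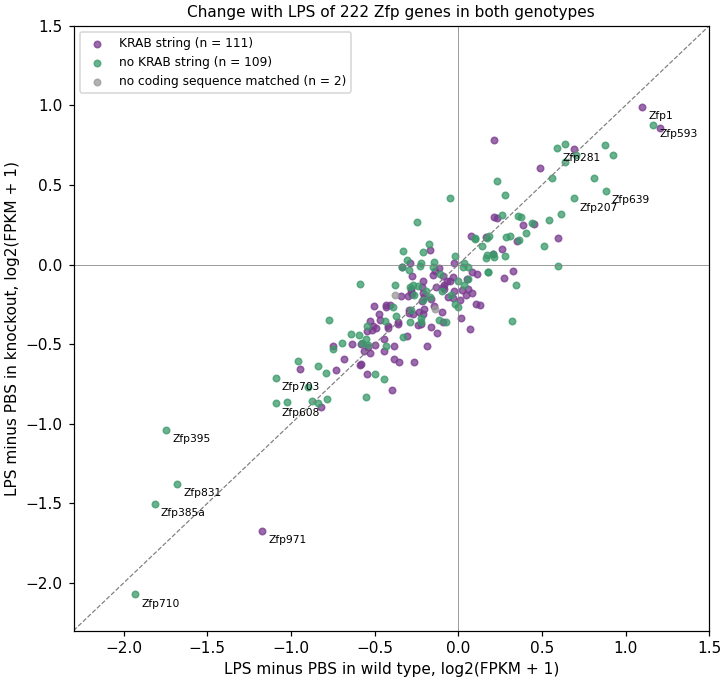
Change with LPS of each of the 222 Zfp genes, as the difference of mean log2(FPKM + 1), in wild type (x axis) and lactoferrin knockout (y axis), coloured by the KRAB string in the translated coding sequence. The points lie along the dashed line of equal change, with Zfp710, Zfp385a, Zfp831, Zfp395 and Zfp971 far to the lower left and Zfp1 and Zfp593 at the upper right.

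On the log2(FPKM + 1) scale, Zfp710 had the largest fall, whereas the low-level member Zfp831, described below, had a larger one when 0.1 FPKM was added in place of 1. It was at 12.5, 10.9 and 17.4 FPKM in the wild-type PBS libraries and at 2.68, 2.89 and 2.73 FPKM with LPS, and in the knockout at 16.3, 15.2 and 13 FPKM with PBS and 3.05, 2.39 and 2.82 FPKM with LPS. All 6 LPS libraries lay below all 6 PBS libraries. The log2 difference was −1.93 ± 0.15 (SE) in wild type (limma adjusted p = 2.59e-06) and −2.07 ± 0.15 in the knockout (adjusted p = 1.96e-06). The gene lies at chr7:80024814-80094173, plus strand (GENCODE, GRCm38), and its longest coding sequence holds 11 fingers and no KRAB string.

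Zfp385a, a p53-induced protein that binds RNA and steers p53 between target genes, fell as well. It was at 9, 8.71 and 9.33 FPKM in wild type with PBS and at 1.51, 2.25 and 1.83 FPKM with LPS, a log2 difference of −1.81 ± 0.13 (adjusted p = 1.83e-06). In the knockout Zfp385a was at 9.42, 8.15 and 8 FPKM with PBS and 2.85, 1.8 and 2.49 FPKM with LPS, a difference of −1.50 ± 0.13 (adjusted p = 7.59e-06). The PBS and LPS libraries did not overlap in either genotype. Zfp703, a corepressor linked to luminal breast cancer, was at 14.3, 13.3 and 13.3 FPKM in wild type with PBS and at 5.25, 5.18 and 7.39 FPKM with LPS. Its knockout values were 13.9, 13.6 and 13.4 FPKM with PBS and 7.31, 10.6 and 6.38 FPKM with LPS. It fell in both genotypes, by 1.09 ± 0.16 (adjusted p = 0.00015) and 0.71 ± 0.16 (adjusted p = 0.0032) on the log2 scale, and the knockout LPS libraries spread more widely.

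Zfp971, a KRAB member on chromosome 2, fell from 18.1, 14.3 and 19.5 FPKM with PBS to 7, 7.99 and 6.28 FPKM with LPS in wild type. The knockout values fell from 23.5, 22.4 and 21.7 FPKM to 5.48, 5.81 and 8.07 FPKM. The log2 differences were −1.17 ± 0.15 and −1.67 ± 0.15 (adjusted p = 5.04e-05 and 7.14e-06). Of the 50-base words in its transcript, 40% were shared with another annotated gene, so reads of a near-identical copy could be counted here.

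Further members among the largest falls were spread over many chromosomes. Zfp395 was at 3.41, 2.69 and 11.2 FPKM in wild type with PBS, with replicate 3 far above the others, and at 0.539 to 0.904 FPKM with LPS (log2 difference −1.75 ± 0.34, adjusted p = 0.000979). In the knockout Zfp395 was at 2.78 to 3.03 FPKM with PBS and 0.662 to 1.11 FPKM with LPS (−1.04 ± 0.34, adjusted p = 0.0231). That knockout call did not hold without PBS replicate 2 or 3 or LPS replicate 3 of the knockout (differences of −1.02 to −0.93, adjusted p = 0.0566 to 0.0686), nor without the 2 libraries richest in erythroid transcripts (−1.07, adjusted p = 0.0661). Zfp358 fell from a mean of 5.32 ± 2.03 (SD, n = 3) to 2.01 ± 0.193 FPKM in wild type and from 4.22 ± 0.377 to 1.9 ± 0.528 FPKM in the knockout. Zfp715, a KRAB member with 19 fingers, fell from 5.73 ± 0.412 to 2.49 ± 0.205 FPKM in wild type and from 5.18 ± 0.297 to 2.93 ± 0.423 FPKM in the knockout. Zfp212, Zfp260 and Zfp597 had fallen to 2.82, 4.46 and 3.13 FPKM with LPS in wild type from 5.87, 8.99 and 6.2 FPKM, and all 3 were called lower in the knockout too. Zfp524 fell from 4.41 ± 2.2 to 1.64 ± 0.0781 FPKM in wild type and from 3.39 ± 0.731 to 1.86 ± 0.113 FPKM in the knockout, with 46% of its 50-base words shared with a predicted gene.

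**Figure D2:**
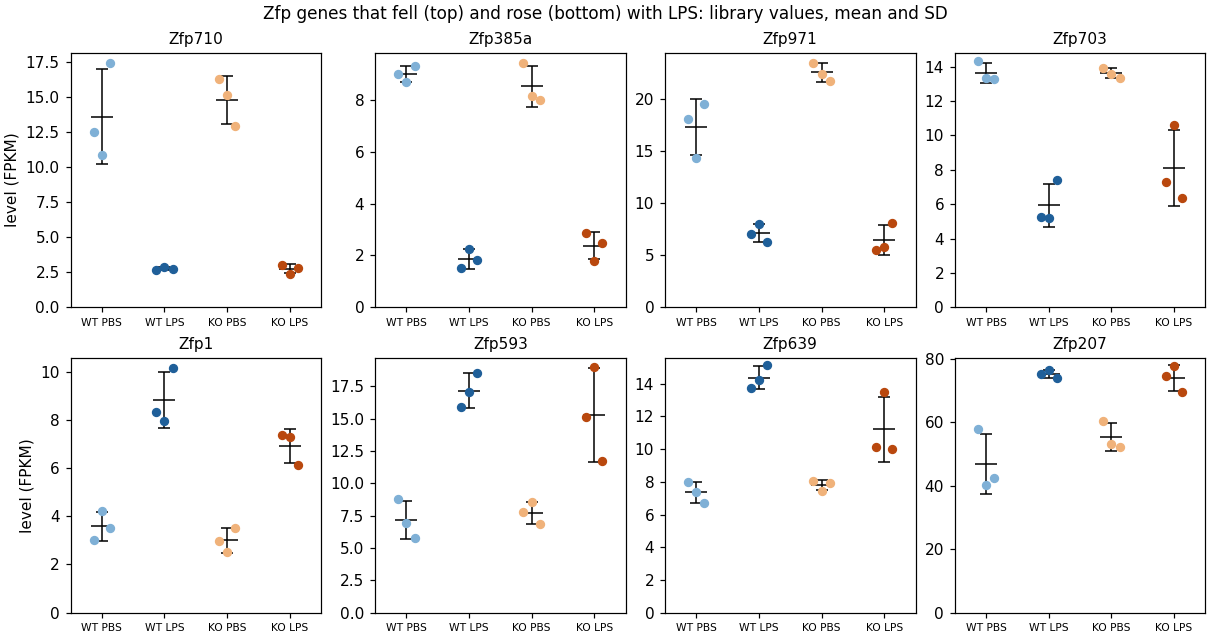
Level in FPKM of 8 Zfp genes in each of the 12 libraries (points), with the mean and SD of each group of 3 (black). In the top row, genes that fell, the LPS libraries lie below the PBS libraries of their genotype; in the bottom row, genes that rose, they lie above them.

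Among the members that rose, Zfp1, a KRAB protein, was at 3.02, 4.23 and 3.51 FPKM in wild type with PBS and at 8.34, 7.96 and 10.2 FPKM with LPS. Its knockout values were 2.97, 2.51 and 3.52 FPKM with PBS and 7.37, 7.28 and 6.11 FPKM with LPS. All LPS libraries exceeded all PBS libraries, with log2 differences of 1.10 ± 0.14 (adjusted p = 4.65e-05) and 0.99 ± 0.14 (adjusted p = 0.000141). Zfp593, the counterpart of a yeast factor for export of the large ribosomal subunit, was at 8.77, 6.96 and 5.81 FPKM in wild type with PBS and 15.9, 17.1 and 18.6 FPKM with LPS. Its knockout values were 7.79, 8.56 and 6.86 FPKM with PBS and 15.1, 19 and 11.7 FPKM with LPS. The groups did not overlap, and the log2 differences were 1.17 ± 0.17 (adjusted p = 0.000137) and 0.88 ± 0.17 (adjusted p = 0.00126).

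Zfp970 had the largest rise in wild type, from 1.7, 1.53 and 1.85 FPKM with PBS to 4.48, 6.61 and 4.72 FPKM with LPS (log2 difference 1.20 ± 0.33, adjusted p = 0.00753). Knockout libraries were at 1.53, 2.16 and 4.82 FPKM with PBS and 3.04, 6.09 and 8.72 FPKM with LPS, and these groups overlapped. The knockout difference of 0.86 ± 0.33 passed the threshold (adjusted p = 0.0441). Zfp970 and Zfp971 are neighbours in sequence: their closest other gene was the same predicted gene, and 52.2% of the words of Zfp970 were shared with it or another gene. The 2 members moved in opposite directions with LPS.

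Zfp639 rose from 7.97, 7.39 and 6.71 FPKM to 13.7, 14.3 and 15.1 FPKM in wild type (0.88 ± 0.11, adjusted p = 5.87e-05) and from 8.05, 7.44 and 7.91 FPKM to 10.1, 13.5 and 10 FPKM in the knockout (0.46 ± 0.11, adjusted p = 0.00498). Zfp800 rose from 4.83 ± 1.04 to 9.11 ± 0.288 FPKM in wild type and from 5.26 ± 0.553 to 8.19 ± 1.31 FPKM in the knockout. Zfp341, a transcription factor that drives STAT3 expression, rose from 1.46 ± 0.122 to 2.84 ± 0.458 FPKM in wild type and from 1.54 ± 0.152 to 3.3 ± 0.158 FPKM in the knockout. The KRAB members Zfp566 and Zfp719 also rose in both genotypes, to 3.11 and 3.98 FPKM in wild type with LPS from 1.53 and 2.57 FPKM.

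For several rises the adjusted p crossed the threshold when 1 library was left out, with the direction kept. Zfp362 was at 6.6, 3.97 and 10.3 FPKM in wild type with PBS and 13, 13.7 and 11.9 FPKM with LPS (0.88 ± 0.25, adjusted p = 0.0101), and the difference was 0.58 without wild-type PBS replicate 2. Its call in the knockout (0.75 ± 0.25, adjusted p = 0.0256) did not hold without PBS replicate 1 or 2 or LPS replicate 1 or 2 of that genotype, where the difference was 0.62 to 0.74 (adjusted p = 0.0644 to 0.0935), nor without the 2 erythroid-rich libraries (0.62, adjusted p = 0.119). Zfp503, a relative of Zfp703, was at 3.9, 2.47 and 1.4 FPKM in wild type with PBS and 7.26, 4.93 and 4.7 FPKM with LPS (0.93 ± 0.28, adjusted p = 0.0129). Without PBS replicate 3 of the wild type the difference was 0.66 (adjusted p = 0.0511), without LPS replicate 1 it was 0.76 (0.0553), and with weighted libraries 0.45 (0.0808). Zfp296 was at 9.27, 6.51 and 7.95 FPKM in wild type with PBS and 10.8, 15.4 and 14.5 FPKM with LPS (0.70 ± 0.22, adjusted p = 0.0145), and the difference was 0.58 (adjusted p = 0.0529) without PBS replicate 2, 0.61 (0.0575) without LPS replicate 2 and 0.61 (0.065) without the 2 erythroid-rich libraries.

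Of 10 members that act on RNA, splicing, translation or the spindle, 2 rose and 4 fell in wild type, and 2 rose and 2 fell in the knockout. Over all tested genes, 24.8% were called higher and 37.4% lower in wild type, and 19.9% and 33.3% in the knockout. For the 10 members, median-of-ratios scaling gave 3 up and 2 down in both genotypes. Without wild-type LPS replicate 3 the falls in wild type numbered 2, and without PBS replicate 2 or 3 or LPS replicate 1 or 2 of the knockout the rises there numbered 1. The list's median log2 difference was −0.218 in wild type and −0.106 in the knockout, and under that scaling it was −0.0521 and 0.0682. Without knockout PBS replicate 1 the knockout median was −0.0423. Zfp598, the ubiquitin ligase that marks ribosomal subunits when ribosomes collide, was at 13.3, 12.9 and 10.7 FPKM in wild type with PBS and 16.6, 19.8 and 19.5 FPKM with LPS. The knockout libraries were at 12, 11.6 and 12.2 FPKM with PBS and 17.2, 18.7 and 17.8 FPKM with LPS, without overlap in either genotype. Its log2 differences were 0.56 ± 0.10 (adjusted p = 0.000565) and 0.54 ± 0.10 (adjusted p = 0.000974).

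Zfp207 was at 57.7, 40.2 and 42.5 FPKM in wild type with PBS and at 75.2, 76.5 and 73.8 FPKM with LPS (0.69 ± 0.13, adjusted p = 0.000874). Its knockout libraries were at 60.3, 53.1 and 52.2 FPKM with PBS and 74.6, 77.6 and 69.5 FPKM with LPS, also without overlap (0.42 ± 0.13, adjusted p = 0.0197). The knockout call did not hold without PBS replicate 2 or 3 or LPS replicate 1 or 2 of that genotype (differences of 0.38 to 0.41, adjusted p = 0.0523 to 0.0686), nor without the 2 erythroid-rich libraries (0.41, adjusted p = 0.069). Zfp622, a maturation factor of the large ribosomal subunit, was at 16.3, 14.7 and 19.7 FPKM in wild type with PBS and 13.6, 12.1 and 13.7 FPKM with LPS, a fall of 0.33 ± 0.12 on the log2 scale (adjusted p = 0.0346). It did not hold without PBS replicate 1 or 3 or any 1 of the 3 LPS libraries of the wild type (differences of −0.36 to −0.22, adjusted p = 0.0539 to 0.127), nor without the 2 erythroid-rich libraries (−0.28, adjusted p = 0.137). Both scalings (0.273 and 0.172) and a fit of the 2 wild-type groups alone (0.0694) ended it too. Zfp346, a binder of double-stranded RNA, was at 3.4 to 5.03 FPKM over the 12 libraries, and Zfp638, an RNA-binding protein that silences unintegrated retroviral DNA, at 8.86 to 13 FPKM, with no call for either.

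Of 21 listed transcription and chromatin factors, 17 were members. The list was meant for factors without a KRAB box, but whether each lacks one was not tested. Of the 17, 4 rose and 6 fell in wild type and 3 rose and 6 fell in the knockout. Over all tested genes, 24.8% were called higher and 37.4% lower in wild type, and 19.9% and 33.3% in the knockout. The median log2 difference of the 17 was −0.108 in wild type and −0.0345 in the knockout. Median-of-ratios scaling turned these to 0.0388 and 0.0903, with 8 up and 3 down and 6 up and 3 down. Without 1 library the median ranged from −0.181 (PBS replicate 2 left out) to −0.0383 (PBS replicate 3 left out) in wild type, and from −0.0737 (LPS replicate 2 left out) to −0.00106 (LPS replicate 3 left out) in the knockout. Without wild-type LPS replicate 1 the falls in wild type numbered 3, and without knockout PBS replicate 1, 2 or 3 or knockout LPS replicate 1 the rises in the knockout numbered 2. Without the 2 erythroid-rich libraries, 4 rose and 5 fell in wild type and 2 and 5 in the knockout. Zfp143, an activator at promoters of small nuclear RNA and many mRNA genes that also binds the anchors of chromatin loops, was at 9.25, 7.6 and 7.17 FPKM in wild type with PBS and 12.8, 14.5 and 11.8 FPKM with LPS. Knockout values were 9.24, 8.24 and 8.32 FPKM with PBS and 13.8, 14.7 and 13.6 FPKM with LPS. It rose by 0.64 ± 0.11 and 0.65 ± 0.11 on the log2 scale (adjusted p = 0.00034 and 0.000471).

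Zfp281, a factor known from embryonic stem cells, rose from 12.8 ± 2.9 to 19.6 ± 2.7 FPKM in wild type (adjusted p = 0.0049) and from 11.6 ± 0.931 to 19.9 ± 0.85 FPKM in the knockout (adjusted p = 0.00177). Zfp131, a BTB-domain protein, rose from 9.2 ± 2.05 to 13.6 ± 0.804 FPKM in wild type (adjusted p = 0.00423). It was at 10.4 ± 0.669 and 12.8 ± 0.563 FPKM in the knockout, which did not pass (adjusted p = 0.0962). Zfp217, an oncogene product that works with CtBP and CoREST corepressors, fell from 12.6, 11.2 and 13.8 FPKM to 6.81, 5.9 and 6.05 FPKM in wild type and from 11.4, 10.6 and 10.7 FPKM to 6.46, 5.08 and 6.45 FPKM in the knockout. Its log2 differences were −0.90 ± 0.11 and −0.77 ± 0.11 (adjusted p = 3.86e-05 and 0.000154). Zfp384 stayed between 10.7 and 13.5 FPKM in all libraries, and Zfp410, which is known to activate Chd4, between 3.91 and 5.41 FPKM, with no call for either.

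Of 4 genes listed as linked to lymphocytes, 3 were in the files, and all 3 were members that fell in both genotypes. By limma, 37.4% of all tested genes were lower in wild type and 33.3% in the knockout. Zfp318 was also in the list of members that act on RNA, and Zfp608 among the transcription and chromatin factors. Their falls were thus counted there too. Zfp831 was at 2.4, 2.17 and 2.69 FPKM in wild type with PBS and 0.0893, 0.0575 and 0.051 FPKM with LPS, and at 1.74, 1.95 and 1.92 FPKM with PBS and 0.189, 0.072 and 0.0595 FPKM with LPS in the knockout. It had the lowest adjusted p of the members in wild type (6.56e-07), with log2 differences of −1.68 ± 0.10 and −1.38 ± 0.10. Adding 0.1 FPKM in place of 1 before the logarithm gave −3.93 and −3.30. Zfp608 fell from 2.82, 3.25 and 2.3 FPKM to 0.864, 0.784 and 0.661 FPKM in wild type and from 3.54, 1.98 and 1.89 FPKM to 0.918, 0.695 and 0.96 FPKM in the knockout. With 0.1 FPKM added, its differences of −1.09 and −0.87 became −1.73 and −1.38. Zfp318, which lets mature B cells make IgD, fell from 3.3 ± 0.52 to 1.92 ± 0.296 FPKM in wild type and from 3.71 ± 0.647 to 1.64 ± 0.235 FPKM in the knockout.

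Sums of markers of several cell types were also lower with LPS, though single markers of a list could differ. The summed level of 7 T cell markers was 124.5 to 138.5 FPKM in wild type with PBS and 22.5 to 23.9 FPKM with LPS, and 79.1 to 100.3 FPKM and 12.3 to 25 FPKM in the knockout. Most of this sum in PBS libraries was Cd2, at 62.8 to 78.9 FPKM with PBS and 4.02 to 7.83 FPKM with LPS in the knockout. Cd3e, Cd3g, Cd3d, Lat and Lck overlapped between PBS and LPS in the knockout, with Cd3e at 1.26 to 3.09 FPKM and 1.28 to 2.86 FPKM. The sum of 7 B cell markers was 565.7 to 1167 FPKM with PBS and 269.2 to 387.7 FPKM with LPS in wild type, and 698.7 to 963.2 FPKM and 161.9 to 280.7 FPKM in the knockout. The sum of 9 macrophage markers was 8706 to 21170 FPKM and 5612 to 8332 FPKM in wild type, and 12120 to 13870 FPKM and 7082 to 9369 FPKM in the knockout. For 9 neutrophil markers it was 1956 to 3262 FPKM and 154.7 to 283.3 FPKM in wild type, and 1200 to 3035 FPKM and 719.2 to 2685 FPKM in the knockout. For 7 mast cell markers it was 477.7 to 880.1 FPKM and 825 to 836.4 FPKM in wild type, and 684.6 to 1061 FPKM and 640.2 to 719 FPKM in the knockout. Single markers did not all follow these sums. In wild type, the macrophage marker Timd4 was at 47.4 to 111.4 FPKM with PBS and 78.1 to 144.7 FPKM with LPS. The B cell marker Pax5 was at 12.9 to 31.6 FPKM and 27.1 to 36.1 FPKM there. In the knockout, the neutrophil marker Ngp was at 0.0753 to 0.559 FPKM with PBS and 8.2 to 30.8 FPKM with LPS. No marker of these lists was at 0 in every library. In bulk RNA, fewer cells of a type and less RNA per cell cannot be told apart, and the part of cell composition in the changes of the members was not tested.

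A string search for the KRAB box matched about as many members as it did not. It looked for fixed patterns of letters, so a box written otherwise would be missed. Members without the string may therefore still carry a box, and how many do was not tested. Positions and coding sequences in GENCODE were matched for 220 members, all but Zfp33b and Zfp607, and 215 of these held at least 1 finger by a string search of the translated sequence. The search found no finger in Zfp330, Zfp503, Zfp703, Zfp839 and Zfp935. The median was 10 fingers and the most was 37. A KRAB string was found in 111 members, with a median of 12 fingers and a median level of 2.31 FPKM, and not in 109, with 7 fingers and 4.23 FPKM.

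With a KRAB string, 11 members rose and 45 fell in wild type (9.91% and 40.5%), and 5 rose and 45 fell in the knockout (4.5% and 40.5%). Without one, 24 rose and 40 fell in wild type (22% and 36.7%), and 16 and 35 in the knockout (14.7% and 32.1%). Over all tested genes, 24.8% were called higher and 37.4% lower in wild type, and 19.9% and 33.3% in the knockout. The median log2 difference with a KRAB string was −0.21 in wild type and −0.245 in the knockout, and without one −0.146 and −0.0907. Under median-of-ratios scaling these were −0.085 and −0.115 with a KRAB string, and 0.0102 and 0.0529 without one, where the sign turned. Without a KRAB string, the knockout median was −0.04 without PBS replicate 3 and −0.0577 without LPS replicate 1, and the wild-type median was −0.0918 without LPS replicate 1 and −0.0935 without PBS replicate 3. Median-of-ratios scaling gave counts of 14 up and 30 down in wild type and 10 and 28 in the knockout with a KRAB string. Without one, it gave 38 and 29, and 32 and 22. Without 1 library, the rises with a KRAB string in wild type numbered 6 (LPS replicate 1 left out) or 7 (LPS replicate 3 left out). In the knockout, the rises without a KRAB string numbered 10 without LPS replicate 2 and 8 without PBS replicate 2. The difference between these classes was not tested.

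By level, the most abundant members held the highest share of rises in both genotypes. Of the 25 members at 10 FPKM or more, 10 rose and 5 fell in wild type (40% and 20%), and 7 and 8 in the knockout (28% and 32%). The shares of all tested genes, whatever their level, were 24.8% higher and 37.4% lower in wild type. In the knockout they were 19.9% and 33.3%. Shares of all genes by level, and other scalings of these classes, were not computed. All 10 risers of wild type were among the 20 of these without a KRAB string, of which 3 fell. The 5 abundant members with a KRAB string held 0 risers and 2 that fell in wild type, and all 5 fell in the knockout. At 1 to 2 FPKM, 3 of 59 members rose and 24 fell in wild type, and 1 rose and 20 fell in the knockout. The addition of 1 FPKM shrinks the differences of such low genes. At 2 to 5 FPKM, 6 of 52 members with a KRAB string rose and 20 fell in wild type, against 9 and 22 of 51 without one.

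**Figure D3:**
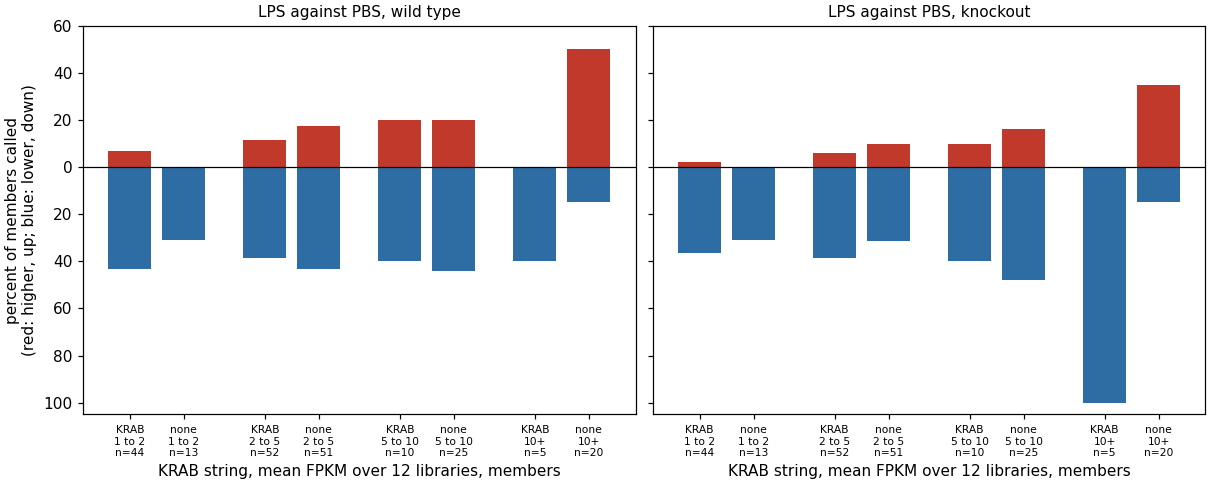
Percent of members called higher (red, upward) and lower (blue, downward) with LPS in wild type (left) and knockout (right), for members with and without a KRAB string in 4 classes of mean FPKM, with the number of members under each bar. The bar of members without a KRAB string at 10 FPKM or more is the only one of each panel with more rises than falls (10 against 3 of 20 in wild type).

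Few members listed for a known silencing target were called with LPS. Of 7 KRAB proteins listed for a known target, 5 were members, and 0 were called in wild type by limma (1 lower in the knockout). Calls over all tested genes were 24.8% higher and 37.4% lower in wild type, and 19.9% and 33.3% in the knockout. With 5 genes, the lack of a call does not show a lack of change, and the difference from all genes was not tested. The listed members Zfp708 and Zfp932 shared 100% and 55.5% of their transcript words with other genes. Zfp809, which silences murine leukaemia provirus, was at 5.67 to 7.14 FPKM with PBS and 7.07 to 7.82 FPKM with LPS in wild type, and at 5.87 to 7.43 FPKM and 6.29 to 12.7 FPKM in the knockout. Zfp445, which guards genomic imprints, was at 11.4 to 12.6 FPKM and 11.8 to 13.2 FPKM in wild type. In the knockout it was at 13.7, 14.8 and 15 FPKM with PBS and 7.79, 12.2 and 12.8 FPKM with LPS, and the fall of 0.40 ± 0.15 passed (adjusted p = 0.0366). Without knockout LPS replicate 1, the library at 7.79 FPKM and an erythroid-rich one, the difference was −0.20 (adjusted p = 0.118), and 1 of the 5 listed members was called higher. Leaving out any 1 of the 3 knockout PBS libraries also ended the call (adjusted p = 0.0573 to 0.0961), as did both scalings (0.251 and 0.161), no filter on low values (0.0592) and a fit of the 2 knockout groups alone (0.0771). Zfp568, which represses a placental Igf2 transcript, stayed at 2.27 to 2.92 FPKM in all 12 libraries.

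The machinery that KRAB proteins recruit was counted as a list of its own, and its difference from the members was not tested. Of 27 listed genes of the corepressor complex and of heterochromatin, 26 were tested, of which 12 rose and 3 fell in wild type (of all tested genes, 24.8% were higher and 37.4% lower). In the knockout 9 rose and 4 fell (of all tested genes, 19.9% were higher and 33.3% lower). Its median log2 difference was 0.228 in wild type and 0.131 in the knockout. Median-of-ratios scaling gave 16 up and 3 down in wild type and 15 and 3 in the knockout. Without 1 library the rises numbered 11 or 12 in wild type and 6 to 10 in the knockout, with 6 without knockout LPS replicate 2, and the falls in wild type numbered 6 without PBS replicate 2 and 5 without LPS replicate 2.

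Trim28, the scaffold that KRAB boxes bind, rose from 51.4 ± 4.37 to 76.3 ± 9.42 FPKM in wild type (log2 difference 0.56 ± 0.15, adjusted p = 0.00622). In the knockout it was at 49.8 ± 3.68 and 66.5 ± 11.9 FPKM (0.40 ± 0.15, adjusted p = 0.0377), which did not hold without PBS replicate 2 or 3 or LPS replicate 1 or 2 of that genotype (adjusted p = 0.0879 to 0.136), nor without the 2 erythroid-rich libraries (0.147). Setdb1, which methylates histone H3 at the bound site, rose from 7.18 ± 0.52 to 11.3 ± 2.02 FPKM in wild type (adjusted p = 0.00117) and from 7.09 ± 0.418 to 10.2 ± 0.738 FPKM in the knockout (adjusted p = 0.00499). Its partner Atf7ip, which stabilises Setdb1, fell from 10.8 ± 0.65 to 5.25 ± 0.28 FPKM in wild type (adjusted p = 3.63e-05) and from 9.73 ± 1.56 to 4.74 ± 0.41 FPKM in the knockout (adjusted p = 6.34e-05). The heterochromatin protein Cbx5 rose from 7.22 ± 0.955 to 13.2 ± 1.83 FPKM in wild type, and Uhrf1, which brings Dnmt1 to replicating DNA, from 3.85 ± 0.797 to 14 ± 4.97 FPKM. Both rose in the knockout too. The remodeller Chd3 and the DNA methyltransferase Dnmt3a fell, from 8.05 to 3.8 FPKM and from 3.58 to 1.99 FPKM in wild type, and also fell in the knockout.

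Other zinc finger families were counted in the same way. Over all tested genes, 24.8% were called higher and 37.4% lower in wild type, and 19.9% and 33.3% in the knockout. Differences of the families from these shares were not tested. Of 12 tested Zkscan and Zscan genes, which carry a SCAN domain, 9 fell and 0 rose by limma in each genotype, with medians of −0.522 and −0.603. Median-of-ratios scaling gave 7 falls in wild type and, in the knockout, 8 falls and 1 rise. Of 36 tested Zbtb genes, 6 rose and 16 fell in wild type and 4 and 15 in the knockout, where median-of-ratios scaling gave 9 and 12 and upper-quartile scaling 8 and 12. Of 17 tested Klf and Sp genes, 3 rose and 8 fell in wild type and 0 and 8 in the knockout by limma. The Klf and Sp rises in wild type numbered 1 without PBS replicate 2 or 3 or LPS replicate 1 or 3, 2 without LPS replicate 2 and 5 under both scalings. In the knockout they numbered 3 without LPS replicate 3 or under median-of-ratios scaling, and 2 without PBS replicate 3 or under upper-quartile scaling.

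Members lay most often on chromosome 7 (48 members), chromosome 17 (30), chromosome 13 (25) and chromosome 8 (18). Members no more than 500000 bases apart formed 11 runs of 4 or more, which held 86 members. The largest run held 17 members with a KRAB string between positions 67038596 and 67755228 of chromosome 13. It was singled out for its size after its values had been seen. The run's summed level was 53.1 to 61.1 FPKM in wild type with PBS and 40.3 to 43.3 FPKM with LPS, and 52.5 to 55.4 FPKM and 39.7 to 42.4 FPKM in the knockout. All 6 LPS libraries thus lay below all 6 PBS libraries.

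All 17 members of the run had lower means with LPS in wild type, of which 10 passed the test, and 16 in the knockout, of which 11 passed. Over all tested genes, 56.6% had a negative difference in wild type and 59% in the knockout, and 37.4% and 33.3% were called lower. Median-of-ratios scaling left 14 lower in wild type, 7 of them called, and 12 in the knockout, 6 of them called. Under that scaling, 29.2% and 24.6% of all tested genes were called lower. Without knockout PBS replicate 3, 7 of the run were called in the knockout. Zfp87 fell most, from 6.78 to 3.67 FPKM in wild type (log2 difference −0.73 ± 0.11, adjusted p = 0.000136) and from 6.81 to 3.93 FPKM in the knockout (−0.66 ± 0.11, adjusted p = 0.000376). Zfp429, the most abundant of the run, was at 8.25 FPKM with PBS and 7.57 FPKM with LPS in wild type and was not called. Zfp708 was the exception in the knockout, at 1.13 FPKM with PBS and 1.29 FPKM with LPS, also not called, and all of its 50-base words were shared with a predicted gene. In 5 of the 17, at least 20% of the words were shared with another annotated gene.

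**Figure D4:**
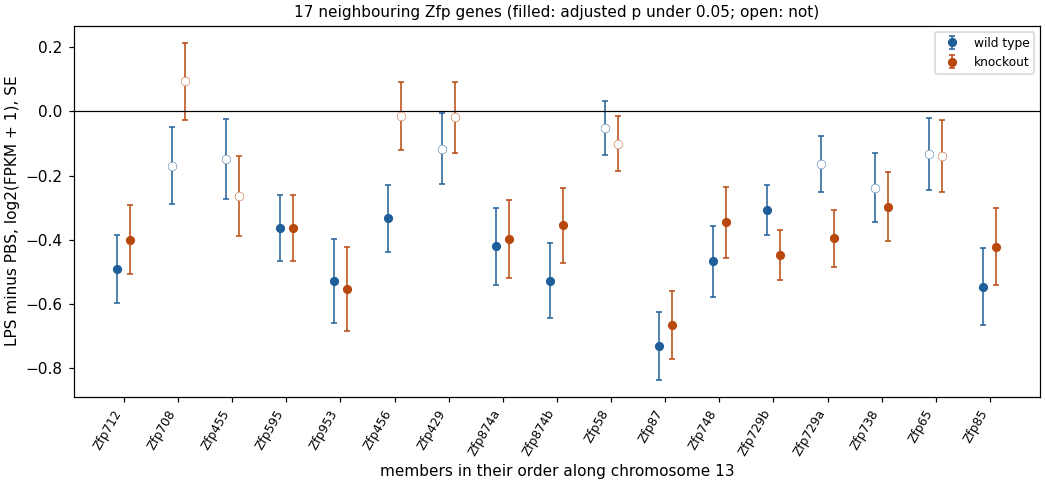
Change with LPS of 17 neighbouring KRAB Zfp genes in their order along chromosome 13, as the difference of mean log2(FPKM + 1) with its SE, in wild type (blue) and knockout (orange); filled points passed the threshold. All 17 wild-type points lie below 0, from −0.05 for Zfp58 to −0.73 for Zfp87, and in the knockout Zfp708 alone lies above 0.

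Among the other runs, a run of 12 on chromosome 17 (positions 21008903 to 22377281) held 1 rise and 6 falls in wild type and 0 and 5 in the knockout. A second run of 11 on chromosome 17 (32765496 to 33631779) held 2 rises and 2 falls in wild type and 0 and 4 in the knockout. On chromosome 7, the run of 10 between 29768552 and 30169750 held 2 rises and 3 falls in wild type, with Zfp566 rising and Zfp260 falling within it. A run of 4 on chromosome 8 (71882019 to 71993792), Zfp709, Zfp882, Zfp617 and Zfp961, held 4 falls in wild type and 2 in the knockout, with lower means for all 4 in both genotypes. A run of 4 on chromosome 7 (27731389 to 27979171), Zfp60, Zfp626, Zfp59 and Zfp780b, held 0 rises and 3 falls by limma in each genotype, also with all 4 lower. A run of 6 on chromosome 6 (47835661 to 48086593) held 0 rises and 2 falls in wild type and 0 and 4 in the knockout. Over all tested genes, 24.8% were called higher and 37.4% lower in wild type, and 19.9% and 33.3% in the knockout.

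Members differed in how much sequence they shared with other genes. In 101 members no 50-base word of the transcript occurred in another gene. In 23 members at least 20% were shared. Among the 170 with under 5% shared, 31 rose and 69 fell in wild type and 19 and 59 in the knockout, close to the shares over all members. Among the 27 with 5% to 20% shared, 2 rose and 9 (33.3%) fell in wild type, and 1 rose and 13 (48.1%) fell in the knockout. The 23 with at least 20% held 2 rises and 7 falls (30.4%) in wild type and 1 and 8 (34.8%) in the knockout. Calls over all tested genes were 24.8% higher and 37.4% lower in wild type, and 19.9% and 33.3% in the knockout. The bearing of shared sequence on the calls was not tested.

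Loss of lactoferrin changed no member past the threshold. Under PBS, limma called 0 of the 222 members, against 0.0203% of all tested genes higher and 0.0915% lower. Under LPS it called 0 members, against 0% of all tested genes higher and 0% lower. At an unadjusted p under 0.05 there were 9 members (4.05%, against 9.11% of all tested genes) under PBS and 21 (9.46%, against 7.56%) under LPS. For the interaction, in which the wild-type change with LPS was subtracted from the knockout change, limma called 0 members, against 0.0406% of all genes higher and 0% lower, with 16 members (7.21%, against 9.61%) at an unadjusted p under 0.05. The lowest adjusted p of a member was 0.386, 0.239 and 0.353 in the 3 contrasts. The median SE of a member's log2 difference was 0.117 between genotypes and 0.165 for the interaction. With limma's library weights, 0 members were called under PBS, 18 under LPS (5 higher, 13 lower) and 2 in the interaction, Zfp691 and Zfp869, while 10.9% of all tested genes were called under LPS and 2.29% in the interaction.

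Under LPS, Zfp869, a KRAB member of chromosome 8 that fell with LPS in the knockout (adjusted p = 0.0069), had the lowest p of the members. It was at 10.9, 10.5 and 11.6 FPKM in wild type with LPS and at 8.07, 8.96 and 7.73 FPKM in the knockout with LPS, without overlap, and at 10.1 to 11.5 FPKM in the 6 PBS libraries. The log2 difference of knockout less wild type under LPS was −0.38 ± 0.09 (adjusted p = 0.239), and the interaction was −0.35 ± 0.12 (adjusted p = 0.441). Zfp580 was at 2.05, 1.36 and 1.87 FPKM in wild type with LPS and 0.85, 0.597 and 0.573 FPKM in the knockout with LPS (−0.72 ± 0.20, adjusted p = 0.455). Zfp422 was at 3.45 to 3.73 FPKM and 2.4 to 3.01 FPKM (adjusted p = 0.481). These groups did not overlap either, but no difference passed the threshold. On the higher side, Zfp691, Zfp623 and Zfp655 had the lowest p, with differences of 0.31, 0.28 and 0.18 (adjusted p = 0.606, 0.638 and 0.646).

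Zfp691 was the 1 member whose libraries were ordered in opposite ways in the genotypes. It was at 1.75, 1.78 and 1.63 FPKM with PBS and 1.15, 1.55 and 1.19 FPKM with LPS in wild type, and at 1.53, 1.3 and 1.26 FPKM with PBS and 1.74, 2.17 and 1.65 FPKM with LPS in the knockout. The interaction was 0.52 ± 0.16 (unadjusted p = 0.00661, adjusted p = 0.353 by limma), and neither genotype's LPS difference was called. How many of all tested genes had such opposite orders was not counted, so the order does not set Zfp691 apart. Zfp623 was at 3.7 ± 0.196 and 2.14 ± 0.326 FPKM in wild type, where it fell (adjusted p = 0.00061), and at 3.13 ± 0.267 and 2.8 ± 0.285 FPKM in the knockout. Its interaction of 0.47 ± 0.15 did not pass (adjusted p = 0.393). Zfp553 had 0.47 ± 0.16 (adjusted p = 0.436), with 4.06 and 3.88 FPKM in wild type and 3.08 and 4.45 FPKM in the knockout. Zfp280c and Zfp26 had interactions of −0.47 ± 0.17 and −0.36 ± 0.13 (adjusted p = 0.444 and 0.452).

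Under PBS, the members with the lowest p were Zfp622, Zfp553 and Zfp516 on the lower side of the knockout and Zfp52, Zfp971 and Zfp948 on the higher. Zfp622 was at 16.3, 14.7 and 19.7 FPKM in wild type and 12.7, 12.4 and 12.8 FPKM in the knockout (−0.38 ± 0.12, adjusted p = 0.386). Zfp971 was at 18.1, 14.3 and 19.5 FPKM in wild type and 23.5, 22.4 and 21.7 FPKM in the knockout (0.37 ± 0.15, adjusted p = 0.493). Both pairs of groups were separate, and neither passed. Zfp52 differed by 0.38 ± 0.13 (adjusted p = 0.407), Zfp553 by −0.31 ± 0.11 (adjusted p = 0.451), Zfp516 by −0.32 ± 0.13 (adjusted p = 0.496) and Zfp948 by 0.36 ± 0.16 (adjusted p = 0.541).

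**Figure D5:**
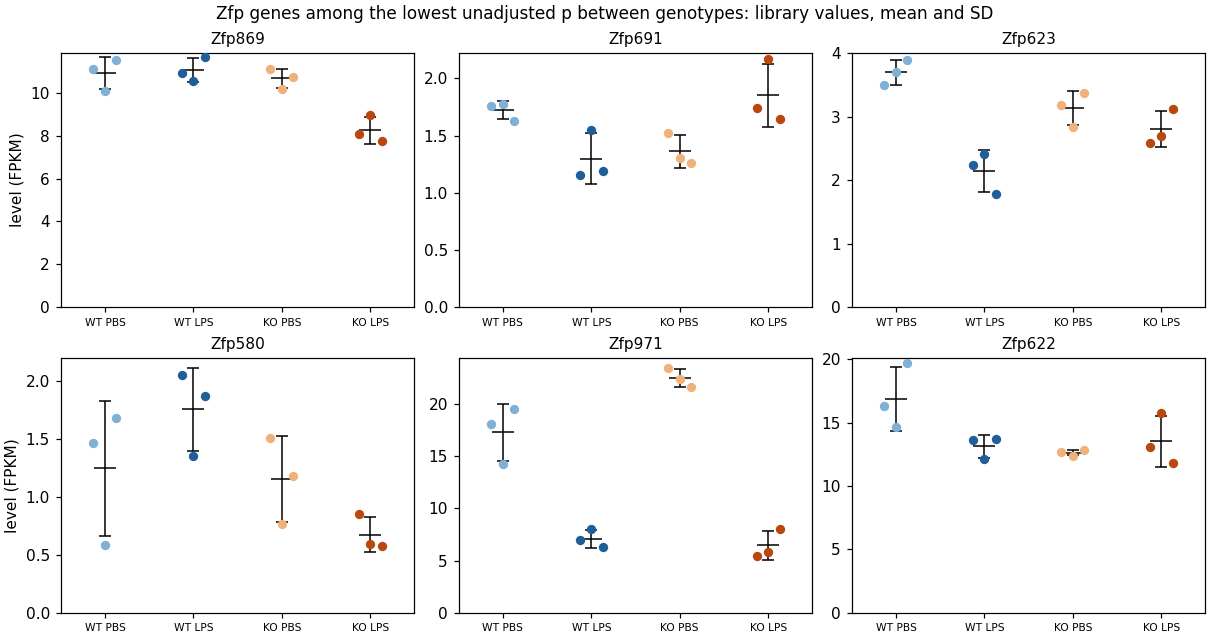
Level in FPKM of 6 Zfp genes among those with the lowest unadjusted p for the genotype, in each of the 12 libraries (points), with the mean and SD of each group of 3 (black). Zfp869 is lowest in the 3 knockout LPS libraries (7.73 to 8.96 FPKM), and no genotype difference plotted here passed the threshold after adjustment.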

How the data were processed

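Peritoneal lavage cells gave 12 libraries of total RNA, prepared by Solexa protocols, per the labels. The authors deposited 1 table per library of gene symbols and values whose unit is not stated. The deposited values were taken as FPKM, because they are not whole numbers and Cufflinks reports that unit. Per the submitters' processing notes, the build was GRCm38 and the tools included HTSeq, TopHat, DESeq and Cufflinks, whose versions and roles are not stated there. The labels give no annotation, strand or read depth, so no counting intervals can be given, and low genes rest on few reads. Near-identical copies may share reads.

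Of 21878 rows, 27 with a date for a symbol were left out. Genes whose mean reached 1 FPKM, 9841 in all, were fitted with limma 3.58.1 (statmod 1.5.0, R 4.3.3) on log2(FPKM + 1), with a mean for each of 4 groups, 8 residual degrees of freedom, and a variance trend with robust shrinkage. The 5 contrasts were two-sided, with Benjamini-Hochberg adjustment over all genes and a threshold of 0.05. The members and lists were chosen with earlier results of these data known.

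The genes named were, in each LPS contrast, up to 8 with the largest rises and up to 8 with the largest falls among called members with non-overlapping groups and a mean of 2 FPKM or more. Also named were the lowest p values in each direction of the genotype contrasts, the 10 highest means, the 3 members nearest the minimum on each side, and members of the lists. Alternatives changed the added constant, the filter, the scaling, the variance model, the library weights, the groups fitted, a replicate block and the libraries. Leaving out the 2 libraries richest in erythroid RNA was chosen after seeing the data. Positions and translated coding sequences came from GENCODE on GRCm38, and promoters from RefSeq on GRCm38.p6. Figures were drawn with matplotlib 3.10.9.

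Same-numbered libraries of different groups did not deviate together, and the labels give no shared animal, so the replicate number was not used as a block.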

Additional observations from a re-analysis of the deposited data

How the results depend on the processing

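The count of members called with LPS was within 1.5 times its reported value under every alternative run, from 94 to 138 in wild type and from 73 to 142 in the knockout. Leaving out 1 library gave 96 to 116 in wild type and 75 to 91 in the knockout. With limma's library weights, 18 members were called between genotypes under LPS and 2 in the interaction, in place of 0, and the cause was not tested. The remaining alternatives called 0 members in the 3 genotype contrasts. Median-of-ratios scaling moved the members' median log2 difference to −0.0503 in wild type and −0.0402 in the knockout. The replicate numbers do not pair the libraries: correlations of same-numbered deviations lay between −0.254 and 0.19. A fit with the replicate block gave 98 and 86 members called with LPS. For the named members called with LPS, 462 values in wild type and 414 in the knockout kept direction and side of the threshold, and 48 in each no longer passed. None of these called values changed sign. Low levels limit the precision: at 1 to 2 FPKM, the added constant shrinks a difference.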
